A study of Mus musculus with 10 samples.

Results

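Elongating RNA polymerase II on long noncoding RNA (lncRNA) genes was examined in MuSCs, the stem cells of mouse skeletal muscle, after culture. The peaks were those of the Pol II S2P table that lay on an autosome, were shorter than 2000 bases and were listed with a gene of the type lncRNA. These 2099 peaks, of 51322 in the table, fell on 1096 genes, and 705 of these genes held a single peak. The study mapped RNA polymerase II phosphorylated at serine 2 (Pol II S2P) and histone H4 monomethylated at lysine 20 (H4K20me1) with CUT&RUN. Here a nuclease is brought by an antibody to the bound chromatin, and the DNA that it cuts free is sequenced. Ctrl cells carried the genotype Pax7CreERT/Suv4-20h1WT and sKO cells Pax7CreERT/Suv4-20h1KO, where Suv4-20h1 is an older name of Kmt5b, the gene of a methyltransferase that adds further methyl groups to H4K20me1. Both groups therefore carried the tamoxifen-inducible Cre recombinase driven from Pax7, which is active in satellite cells, and tamoxifen was given to adult mice. Each group had 2 libraries per antibody. The study calls them biological replicates. The labels number them but do not say whether they came from separate mice, so the p-values measure only the spread between these libraries.

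LncRNAs are transcripts without a long open reading frame that are made, like messenger RNAs, by RNA polymerase II. Serine 2 of the polymerase tail is phosphorylated as the enzyme moves into the gene body, so S2P marks elongation and is high towards the 3′ ends of genes. Some lncRNAs act in the nucleus, such as Neat1 and Malat1, others are processed to release microRNAs or small nucleolar RNAs, and many are transcribed from the same promoter region as a protein-coding neighbour. H4K20me1 covers the bodies of many transcribed genes and is the substrate of KMT5B. CUT&RUN does not tell the strands apart, so a peak cannot be credited to the lncRNA rather than to a transcript of the opposite strand or to a neighbour whose transcription runs on.

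The 4 Pol II S2P libraries had summed scores of 3257665 and 4243685 in Ctrl, against 4885638 and 3435908 in sKO. A score is the spike-in normalised coverage of a peak and is not divided by its length. The groups overlapped. The highest total was that of sKO replicate 1 and the lowest that of Ctrl replicate 1. In these bulk samples, fewer cells with signal and less signal per cell cannot be told apart. The 2 peaks listed with Kmt5b summed to 24 and 62 in Ctrl, against 48 and 22 in sKO, too low to check the deletion. Of 6 muscle marker genes, 4 held a peak, with summed scores of 3021 to 4539, and Myf5 and Cdh15 held none. Most of that sum was Des, whereas Myod1, a regulator of myoblasts, scored 1329 and 1110 in Ctrl, against 887 and 649 in sKO, without overlap. Its part in the results was not tested. Of 12 endothelial, leukocyte and fibro-adipogenic markers, 5 held a peak. These were Cd68, Csf1r, Pecam1, Tek and Dpt. The leukocyte markers summed to 874 to 1368, nearly all in the single peak of Cd68. The endothelial Pecam1 scored 82 to 147 and Tek 51 to 109, against 53 to 92 for the muscle gene Myog. The other markers, Ptprc, Lyz2, Pdgfra, Ly6a, Cd34, Cdh5 and Kdr, held none. The part of other cell types in the results was not tested.

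The lncRNA peaks were short, with a median length of 362 bases and a median score of 43.5, close to the 374 bases and 43.0 of the 34185 protein-coding peaks of the same length range. Their scores ran from 9 to 554.5, and the highest 10% of the peaks held 32.6% of the summed score. Most lay in introns: the centre of 1618 peaks was in an intron and that of 354 in an exon of the listed gene, and 127 centres were outside it. Only 3 of the 2099 overlapped a protein-coding gene, so the deposited listing gives a lncRNA almost only where no protein-coding gene is present. A gene such as an antisense transcript inside a coding gene is thus represented only by the stretch outside its partner. Within the length limit the longest peaks lay on 1700041G16Rik (1961 bases) and 1700113A16Rik (1951 bases), and the first ones left out lay on Gm26542 (2030 bases) and Bvht (2089 bases). The limit left out 43 autosomal lncRNA peaks, among them the long domains on Neat1, the scaffold of paraspeckles. The higher of these Neat1 domains, 11005 bases long, scored 3221 and 4357 in Ctrl and 6236 and 4271 in sKO.

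By place, 264 peaks (12.6%) had their centre within 1000 bases of the start of their own gene and of no protein-coding start. A further 117 (5.57%) lay at a start shared with a protein-coding gene, 78 (3.72%) at a protein-coding start only, and 1639 (78.1%) in the gene body outside protein-coding genes. Peaks at lncRNA starts were the highest, with median scores of 53 and 66.5 in Ctrl and of 76 and 55.5 in sKO, against 34, 45, 52 and 38 in gene bodies. This order held in each of the 4 libraries. The peaks at lncRNA starts were also longer (median 462 against 362 bases), and per kb the medians were closer, 138 against 119. The 2096 lncRNA peaks that overlapped no protein-coding gene lay a median of 13048 bases from one, against 4803 for peaks listed with no gene. Of these 2096, 377 (17.99%) lay within 5 kb of a protein-coding 5′ end. That share was 16.5% for peaks listed with no gene. In 336 of the 377 the lncRNA was on the opposite strand, as in divergent transcription. Within 5 kb of a protein-coding 3′ end lay 360 lncRNA peaks (17.2%), compared with 34.5% of the peaks listed with no gene. In 274 of these 360 the lncRNA was also on the opposite strand, so this orientation was not particular to 5′ ends.

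The central 200 bases of the peaks were read from the GRCm38 genome to see what sequence the polymerase sat on. The motifs searched, on both strands and with overlaps allowed, were AP-1 (TGANTCA), an E-box of myogenic factors (CAGCTG), TEAD (GGAATG), the GC box (GGGCGG), the CCAAT box (CCAAT), the TATA box (TATAAA) and ETS (CCGGAA). At the 3 highest peaks at a lncRNA start, shown because they carry the highest signal at promoters of lncRNAs alone, the plus strand reads as follows, with motif matches in capitals.
1700113A16Rik chr3:88177556-88177755: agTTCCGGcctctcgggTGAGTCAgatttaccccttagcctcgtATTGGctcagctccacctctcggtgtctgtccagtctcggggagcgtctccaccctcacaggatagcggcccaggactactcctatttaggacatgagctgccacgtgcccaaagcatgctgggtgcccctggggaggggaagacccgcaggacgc
Gm15287 chr13:111725078-111725277: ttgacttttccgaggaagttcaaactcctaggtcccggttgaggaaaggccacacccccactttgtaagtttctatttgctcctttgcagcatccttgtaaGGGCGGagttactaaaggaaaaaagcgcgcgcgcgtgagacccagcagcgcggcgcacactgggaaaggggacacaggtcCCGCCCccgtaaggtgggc
Gm5922 chr9:120135898-120136097: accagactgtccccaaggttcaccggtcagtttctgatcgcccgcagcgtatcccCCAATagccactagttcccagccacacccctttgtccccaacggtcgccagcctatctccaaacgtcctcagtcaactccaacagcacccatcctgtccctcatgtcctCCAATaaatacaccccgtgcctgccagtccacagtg
The 3 highest peaks at a start shared with a protein-coding gene (Tlcd2, Golga3 and Ccdc114, respectively) are shown for comparison.
Mir22hg chr11:75461259-75461458: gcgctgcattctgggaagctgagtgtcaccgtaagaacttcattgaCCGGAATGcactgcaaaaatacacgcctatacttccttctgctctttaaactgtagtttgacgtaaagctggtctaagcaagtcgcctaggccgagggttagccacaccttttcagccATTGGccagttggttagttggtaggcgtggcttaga
Gm15787 chr5:110175855-110176054: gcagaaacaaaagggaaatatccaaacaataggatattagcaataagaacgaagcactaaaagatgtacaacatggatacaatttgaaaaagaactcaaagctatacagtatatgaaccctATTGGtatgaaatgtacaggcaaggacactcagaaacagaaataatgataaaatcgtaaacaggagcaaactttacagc
Gm45442 chr7:45923274-45923473: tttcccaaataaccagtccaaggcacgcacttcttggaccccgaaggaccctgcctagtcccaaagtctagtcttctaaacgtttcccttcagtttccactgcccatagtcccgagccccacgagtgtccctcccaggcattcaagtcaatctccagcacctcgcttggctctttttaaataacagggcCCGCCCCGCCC
The 1700113A16Rik sequence holds 1 AP-1, 1 CCAAT and 1 ETS match among 10 CpG dinucleotides, Gm15287 holds 2 GC boxes and 13 CpG, and Mir22hg holds overlapping ETS and TEAD matches. The Gm15787 window held 33.5% G and C and 2 CpG, the poorest of these 6.

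Over all lncRNA peaks the AP-1 letters occurred in 415 central windows (19.8%), compared with 14.6% of the windows of all 49926 autosomal peaks of this length range. They occurred in 17.2% of the windows of peaks listed with no gene and in 15.2% of those of protein-coding peaks away from their own start. The share was 21.2% at lncRNA starts and 21.1% in lncRNA gene bodies, but 3.42% at shared starts (4 of 117), close to the 3.85% at protein-coding starts. The GC box ran the other way, with 29.9% at shared starts, 18.2% at lncRNA starts and 4.64% in gene bodies, against 48.7% at protein-coding starts and 11.4% overall. The E-box was found in 20.96% of lncRNA windows, 18.4% of all windows and 19.2% of those of peaks listed with no gene. Base composition followed the same order: the median G and C content was 55.0% at shared starts, 52.0% at lncRNA starts, 47.5% in gene bodies and 62.0% at protein-coding starts. At least 10 CpG were present in 46.2% of shared starts and 19.7% of lncRNA starts, against 70.1% of protein-coding starts. These matches are letters in a window and not bound sites, and the share differs with base composition, whose part was not tested.

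**Figure D1:**
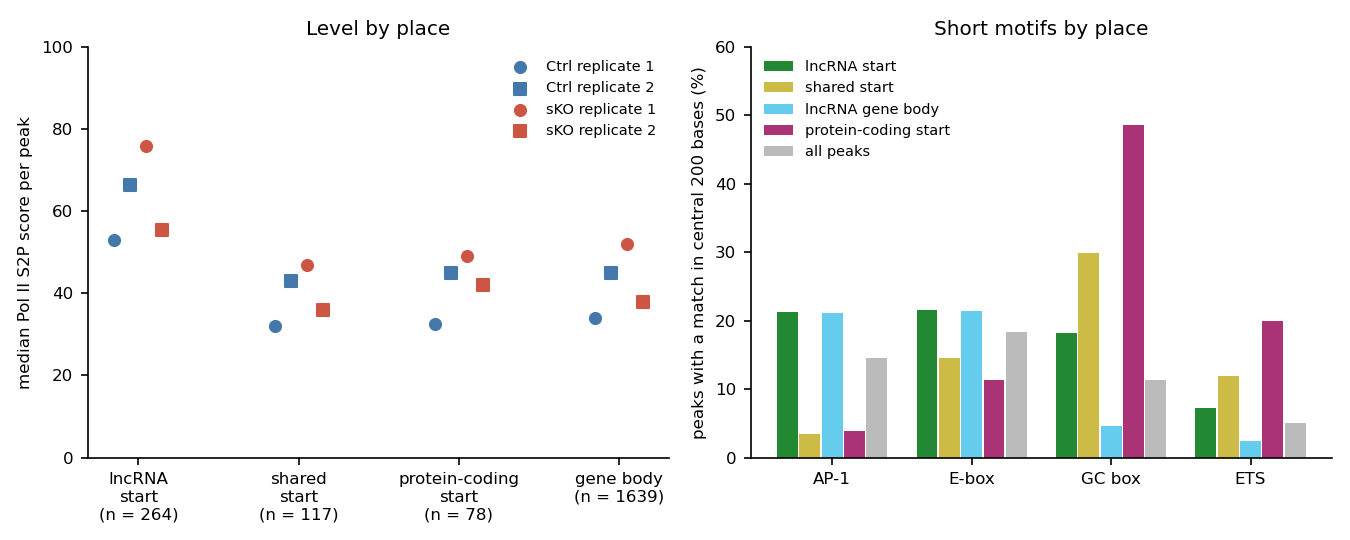
Left, median Pol II S2P score per peak in each library (points) for lncRNA peaks by place; right, bars, percent of peaks whose central 200 bases hold each of 4 motifs, with protein-coding starts in purple and all peaks in grey. Peaks at lncRNA starts have the highest medians (53 to 76), and the AP-1 letters are as frequent there (21.2%) as in lncRNA gene bodies (21.1%) but rare at shared starts (3.42%).

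The highest lncRNA peak lay 1534 bases from the start of 5031425E22Rik (ENSMUSG00000073147), 819 bases from the 5′ end of Kmt2e, a gene of a chromatin regulator transcribed in the other direction. It scored 577 and 600 in Ctrl and 603 and 438 in sKO. Next came Frmd8os, 1387 bases from Neat1, with 474 and 484 in Ctrl and 669 and 449 in sKO, and the start of 1700113A16Rik near Mef2d, a muscle transcription factor gene, with 407 and 520 in Ctrl and 537 and 408 in sKO. In all 3 the groups overlapped. Trp53cor1 (lincRNA-p21), a p53 target next to Cdkn1a, was among the 12 highest with 329 and 369 in Ctrl and 433 and 324 in sKO, as was its neighbour AC167363.1 with 302, 443, 560 and 360. Lncppara and Gm28653, the hosts of let-7 and of the muscle microRNAs miR-206 and miR-133b, held the other peaks of known interest, at 404, 425, 428 and 273 and at 406, 331, 460 and 272. The remaining highest peaks lay on Gm30373, Gm44710, Gm15287 and, with 2 peaks, AC141471.1. None of the 12 differed between the groups beyond the spread of the libraries (limma, adjusted p = 1 for each, log2 fold changes from -0.28 to 0.30).

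**Figure D2:**
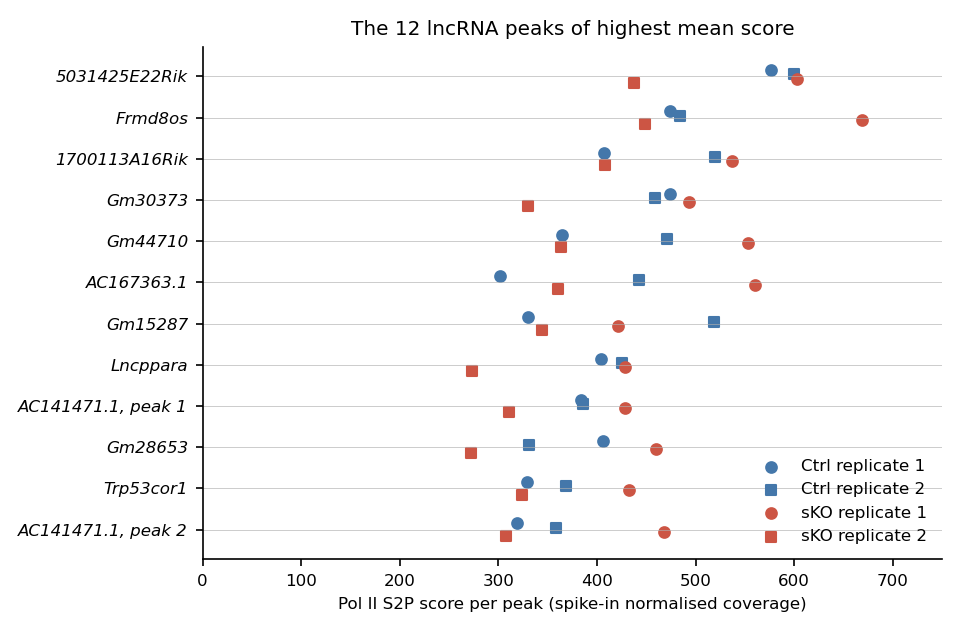
Pol II S2P score (x axis, spike-in normalised coverage per peak) of the 12 highest lncRNA peaks in the 4 libraries; blue, Ctrl, red, sKO, circles and squares are replicates 1 and 2. In each of the 12 peaks the ranges of Ctrl and sKO overlap, as for 5031425E22Rik with 577 and 600 in Ctrl and 603 and 438 in sKO.

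Whether loss of Kmt5b changed elongating polymerase on lncRNA genes was asked with limma over all 22353 autosomal peaks with a mean score over 50. Of the lncRNA peaks, 916 (43.6%) passed that filter. With calls set at a log2 fold change beyond 0.5 and an adjusted p under 0.1, limma called no lncRNA peak in either direction. Of all tested peaks 0.0492% were called, 0.0447% as higher and 0.00447% as lower. An unadjusted p under 0.05 was reached by 28 lncRNA peaks (3.06%), against 3.46% of all tested peaks. The median log2 fold change of the lncRNA peaks was 0.12, against 0.11 for all tested peaks, 0.08 for protein-coding peaks and 0.20 for peaks listed with no gene. This median was negative without Ctrl replicate 1 (-0.06), without sKO replicate 1 (-0.10) and with equal library totals (-0.02). In 154 lncRNA peaks (16.8%) both sKO libraries were above both Ctrl libraries, and in 66 (7.21%) both were below, against 16.7% and 6.84% of all tested peaks. Summed over each gene, 663 lncRNA genes were tested and none was called, as for all 8531 genes (0% in either direction), and 10 had an unadjusted p under 0.05, against 1.17% of all genes.

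The share of the score on lncRNA peaks was nearly the same in the 4 libraries. It was 4.21% and 4.11% in Ctrl and 4.15% and 4.18% in sKO (difference 0.00873 percentage points, pooled SD 0.0504, exact two-sided permutation p = 1, where 2 libraries against 2 cannot go below 0.333). The share on protein-coding peaks was 70.9% in both Ctrl libraries and 68.9% and 69.4% in sKO, and that on peaks with no gene 24.1% and 24.3% in Ctrl and 26.2% and 25.7% in sKO (exact p = 0.333 for each). In these other classes the groups did not overlap. The difference between these shares was not tested. Per library, the median log2 score of tested lncRNA peaks minus that of tested protein-coding peaks was -0.0559 and -0.0875 in Ctrl. In sKO it was -0.0385 and -0.0531, without overlap (difference 0.0259, pooled SD 0.0174, exact permutation p = 0.333, the smallest possible).

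When each library was scaled to the same total, which removes the difference between replicates but also any true difference in amount, 17 lncRNA peaks were called higher and 10 lower in sKO (1.86% and 1.09%, against 2.51% and 1.19%, together 3.7%, of all tested peaks). They lay on 19 genes. At the level of genes 9 were called higher and 6 lower, against 1.61% and 0.61%, together 2.22%, of all genes. The higher genes included Snhg14, Gm15533, Gm41442, Gm20507 and Rab10os, and the lower ones Gm31816, 4930509E16Rik, Nctc1 and H19. H19 and Nctc1 lie beside Igf2 in an imprinted cluster that is active in muscle. The single H19 peak had a fraction of 0.3 of its length in the gene and its centre outside it. This peak scored 296 and 326 in Ctrl and 265 and 206 in sKO, without overlap (equal totals, limma log2 fold change -0.52, adjusted p = 0.0932). Nctc1 over all its peaks, a longer one included, scored 817 and 961 in Ctrl and 840 and 537 in sKO, which overlap (equal totals, limma log2 fold change -0.51, adjusted p = 0.0128).

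**Figure D3:**
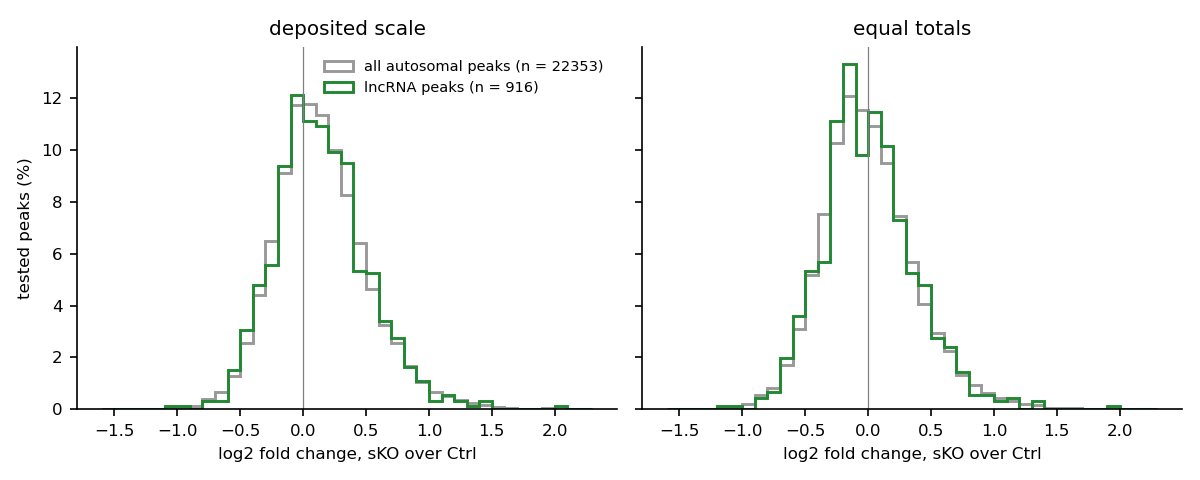
Distribution of the limma log2 fold change (sKO over Ctrl, x axis) of the 916 tested lncRNA peaks (green) and of all 22353 tested autosomal peaks (grey), in percent of each set; left, deposited scale, right, equal library totals. The outlines nearly coincide, with medians of 0.12 and 0.11 on the deposited scale.

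The smallest p of any lncRNA peak was in the distal part of 5031425E22Rik, a gene of chr5:23382308-23434269 on the minus strand that starts back to back with Kmt2e. This peak, centred 39519 bases from the start, scored 92 and 156 in Ctrl and 383 and 294 in sKO. Both sKO libraries were above both Ctrl libraries (limma log2 fold change 1.48, SE 0.40, adjusted p = 0.217), and with equal totals the peak was called (log2 fold change 1.34, limma adjusted p = 3.77e-06). The gene held 23 short peaks and 1 longer one, and over all 24 the groups overlapped, with 2548 and 3372 in Ctrl, against 4629 and 3163 in sKO (equal totals, log2 fold change 0.28, limma adjusted p = 0.134). The 12 short peaks nearest to its start, from 1.534 to 23.7 kb, overlapped a single H4K20me1 peak. The first and highest of them had only 753 of its 1775 bases in it, and scored 577 and 600 in Ctrl, against 603 and 438 in sKO. With that peak included, the Pol II S2P scores of the 12 summed to 1424 and 1701 in Ctrl, against 2060 and 1441 in sKO, which overlap. The 11 beyond the H4K20me1 peak, from 25.9 to 47.7 kb, overlapped none and summed to 594 and 801 in Ctrl, against 1697 and 1077 in sKO, a ratio of means of 1.99 without overlap (exact p = 0.333, the smallest possible). In 7 of these 11 peaks, and in 2 of the 12 nearer ones, both sKO libraries were above both Ctrl libraries, against 16.7% of all tested peaks. Some of the 23 had a mean score too low for the test, and neighbouring peaks of the same gene are not independent. The H4K20me1 peak itself scored 563 and 641 in Ctrl and 1220 and 1387 in sKO (log2 fold change 1.11, SE 0.27, limma adjusted p = 0.000104). Kmt2e, summed over its 38 Pol II S2P peaks, scored 1585 and 2482 in Ctrl and 2677 and 1814 in sKO, with overlap. The division of the gene at the H4K20me1 boundary was chosen after these values were seen.

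The 3 peaks with the next smallest p lay on Snhg14, the imprinted host transcript of clustered small nucleolar RNAs (208 by annotation) whose distal part runs antisense to Ube3a. Its 16 lncRNA peaks lay 647 to 663 kb from its start, between 1206 and 17324 bases past the 3′ end of Ube3a. They summed to 625 and 815 in Ctrl, against 1780 and 1059 in sKO, a ratio of means of 1.97. In 12 of the 16 both sKO libraries were above both Ctrl libraries, against 16.7% of all tested peaks. Some of the 16 had a mean score too low for the test, and neighbouring peaks of the same gene are not independent. The groups did not overlap, but sKO replicate 1 was much the higher (gene log2 fold change 0.94, SE 0.43, limma adjusted p = 1, from 0.57 without sKO replicate 1 to 1.32 without sKO replicate 2). With equal totals it was called (log2 fold change 0.83, adjusted p = 1.33e-05). The peak with the largest change scored 25 and 19 in Ctrl and 127 and 71 in sKO (log2 fold change 2.07, SE 0.62, adjusted p = 0.444), and another one, 12910 bases past Ube3a, 64 and 97 in Ctrl and 270 and 146 in sKO (1.32, SE 0.40, adjusted p = 0.495). The ratio was 2.41 over the 8 peaks farther from Ube3a and 1.55 over the 8 nearer ones. The nearer ones summed to 306 and 428 in Ctrl, against 713 and 425 in sKO, which overlap (exact p = 0.667), so that sKO replicate 1 alone stood higher. Ube3a itself, a ubiquitin ligase gene, held 5 peaks that summed to 181 and 236 in Ctrl, against 304 and 159 in sKO, with overlap. No Snhg14 peak lay in an H4K20me1 peak, and no peak was listed with its upstream neighbour Snrpn. Whether these peaks belong to Snhg14 or to transcription past the end of Ube3a cannot be told apart.

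Fewer peaks stood lower in both sKO libraries (7.21% of the tested lncRNA peaks, against 6.84% of all tested peaks). The smallest p was at Gm31816, with 139 and 136 in Ctrl and 91 and 49 in sKO (log2 fold change -1.03, SE 0.41, limma adjusted p = 1). A peak of 4930509E16Rik at its shared start with Rfx7 scored 195 and 236 in Ctrl and 131 and 130 in sKO (log2 fold change -0.71, SE 0.40, adjusted p = 1). In both the groups did not overlap. The distal Lncpint peak scored 98 and 157 in Ctrl and 54 and 100 in sKO, which overlap. The central 200 bases of peaks with the smallest p in each direction are printed because they rank first by p, with motif matches in capitals. None of these peaks was called on the deposited scale, and the Snhg14 one passed the filter only through sKO.
5031425E22Rik chr5:23394650-23394849: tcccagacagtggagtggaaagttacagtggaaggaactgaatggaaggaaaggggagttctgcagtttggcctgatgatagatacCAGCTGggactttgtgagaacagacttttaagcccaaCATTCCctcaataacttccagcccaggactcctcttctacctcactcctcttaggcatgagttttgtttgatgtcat
Snhg14 chr7:59326880-59327079: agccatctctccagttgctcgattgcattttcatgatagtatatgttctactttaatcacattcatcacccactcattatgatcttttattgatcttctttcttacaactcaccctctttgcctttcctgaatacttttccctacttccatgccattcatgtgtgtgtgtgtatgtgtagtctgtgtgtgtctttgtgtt
Gm31816 chr9:47276530-47276729: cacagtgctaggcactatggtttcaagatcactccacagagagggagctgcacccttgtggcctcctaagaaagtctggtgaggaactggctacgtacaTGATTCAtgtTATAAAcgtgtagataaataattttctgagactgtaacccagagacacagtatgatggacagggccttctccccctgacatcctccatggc
The 5031425E22Rik window holds an E-box and a TEAD match and no CpG, the Snhg14 window none of the 7 motifs and 1 CpG, and the Gm31816 window an AP-1 and a TATA match.

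**Figure D4:**
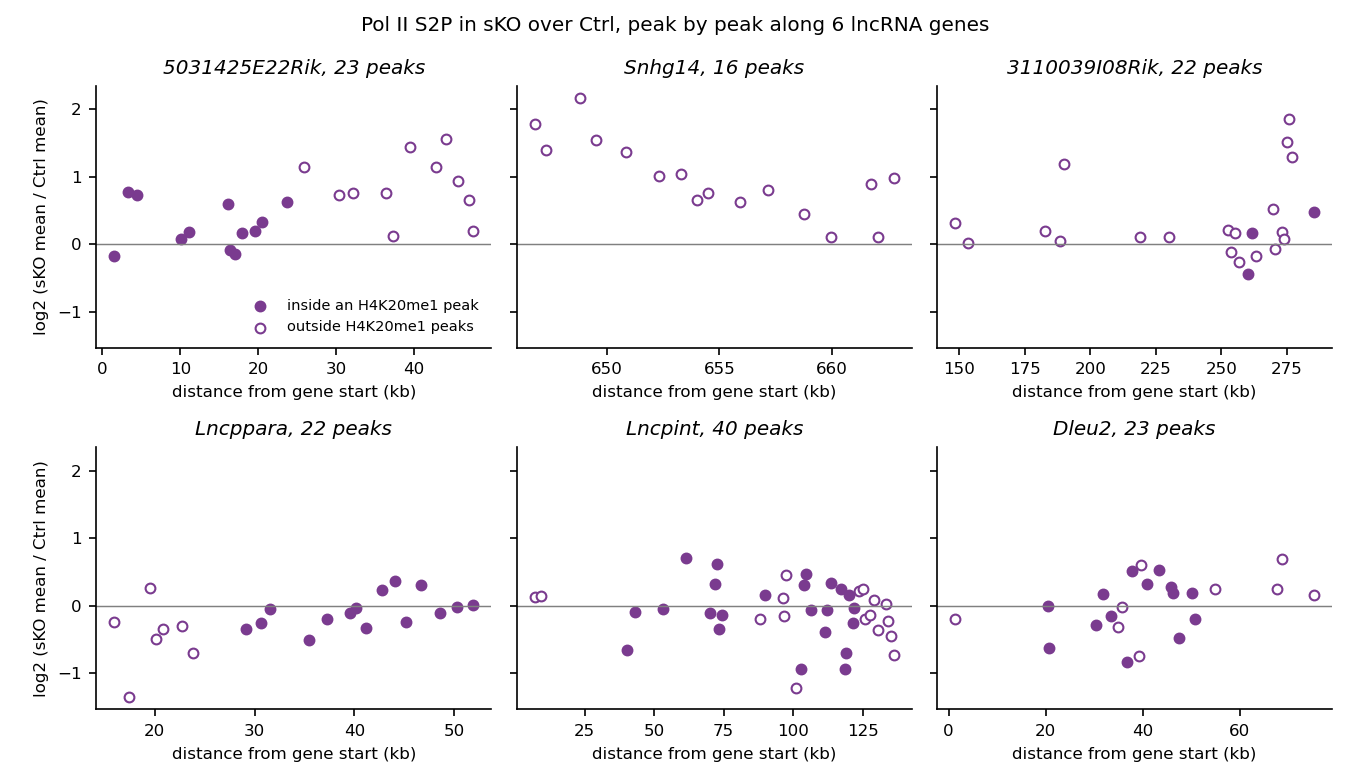
Log2 ratio of the mean Pol II S2P score in sKO over that in Ctrl (y axis) for each lncRNA peak of 6 genes. The x axis is the distance from the start of the gene in kb. Filled points overlap an H4K20me1 peak by at least 1 base and open points do not. Open points of 5031425E22Rik beyond 25.9 kb and all 16 points of Snhg14 lie above 0, whereas points of Lncpint and Dleu2 lie on both sides of 0.

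The genes with most lncRNA peaks were Lncpint with 40, 5031425E22Rik with 23 and Dleu2 with 23, followed by Lncppara, 3110039I08Rik and Gm14005 with 22 each. Lncpint, a p53-responsive transcript, summed to 2395 and 3352 in Ctrl, against 3190 and 2659 in sKO, with overlap. Both sKO libraries were above both Ctrl libraries in 2 of its peaks and below in 5, against 16.7% and 6.84% of all tested peaks. Some of its 40 peaks had a mean score too low for the test. Dleu2, whose processing releases the growth-inhibiting miR-15a and miR-16, summed to 980 and 1101 in Ctrl, against 1162 and 918 in sKO. Its 11 peaks nearest the start summed to 511 and 557 in Ctrl, against 477 and 458 in sKO, without overlap (ratio 0.875, exact p = 0.333), and the 12 farther ones overlapped. In Lncppara the 11 peaks nearest the start, at 15.968 to 35.429 kb, also did not overlap, with 1403 and 1376 in Ctrl and 1238 and 959 in sKO (ratio 0.791, exact p = 0.333, the smallest possible). Its 11 farther ones overlapped, with 1768 and 1953 in Ctrl and 2059 and 1599 in sKO. In 3110039I08Rik, the host of miR-100, let-7a-2 and miR-125b-1, the summed score was 1253 and 1580 in Ctrl, against 1869 and 1475 in sKO, with overlap. When 3110039I08Rik and Lncpint were split by distance from the start, the groups overlapped in each part. These splits were not among the planned comparisons.

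MicroRNA hosts were numerous: 33 of the 1096 genes contained at least 1 annotated microRNA, 53 in all, of which 43 had a RefSeq sequence. For the hosts described here the mature products are given with their seeds, bases 2 to 8, in capitals, grouped by shared seed (RefSeq, GRCm38.p6). From Lncppara come these let-7 members, regulators of differentiation.
mmu-let-7c-5p chr15:85706616-85706637 (plus strand): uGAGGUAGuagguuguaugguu
mmu-let-7b-5p chr15:85707325-85707346 (plus strand): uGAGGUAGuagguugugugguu
From Dleu2 come these, which share another seed.
mmu-miR-15a-5p chr14:61632075-61632096 (minus strand): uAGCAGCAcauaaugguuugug
mmu-miR-16-5p chr14:61631936-61631957 (minus strand): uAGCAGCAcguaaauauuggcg
From Gm28653 come the muscle-enriched microRNAs, and from Mir22hg miR-22, each with its own seed.
mmu-miR-206-3p chr1:20679055-20679076 (plus strand): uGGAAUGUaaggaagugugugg
mmu-miR-133b-3p chr1:20682834-20682855 (plus strand): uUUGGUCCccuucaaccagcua
mmu-miR-22-3p chr11:75463772-75463793 (plus strand): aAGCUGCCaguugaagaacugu
A lncRNA peak was centred 0.168 kb from the mature miR-15a and 1.10 kb from let-7c, and the nearest one to miR-206 was 4.13 kb away. Both let-7c and miR-206 lay in longer peaks of their hosts, 5462 and 8544 bases, that the length limit left out. Gm28653 summed over its 4 short peaks to 798 and 693 in Ctrl, against 836 and 556 in sKO, and Mir22hg scored 331, 363, 388 and 250. Mir99ahg, with miR-99a, let-7c-1 and miR-125b-2, scored 221 and 278 in Ctrl and 427 and 295 in sKO, without overlap (log2 fold change 0.52, SE 0.42, limma adjusted p = 1). Mir17hg, the precursor of the proliferative miR-17 cluster, scored 85 and 96 in Ctrl and 92 and 65 in sKO. Of the 23 hosts tested, none was called on the deposited scale and the median log2 fold change was 0.03, against 0.09 over all genes. With equal totals Gm17494 (miR-760) was called higher and H19 (miR-675) lower, the latter by its single peak centred outside the gene.

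Of 9 nuclear and structural lncRNAs looked for, Malat1, Airn, Neat1 and 2900097C17Rik (Norad) held a short peak. Malat1 scored 344 and 385 in Ctrl and 413 and 250 in sKO, and Airn, the imprinted antisense transcript of Igf2r, 210, 360, 386 and 230. The 2 short Neat1 peaks scored 281, 241, 300 and 244. Of 10 imprinted lncRNAs only Snhg14, Airn and H19 held a peak. Small nucleolar RNA hosts by name numbered 9, and apart from Snhg14 their log2 fold changes over all peaks of the gene, longer ones included, ran from -0.05 at Snhg1 to 0.38 at Snhg15. Over short peaks only, Snhg15 scored 78 and 84 in Ctrl and 105 and 106 in sKO, without overlap. Snhg17 scored 271, 257, 274 and 245 and Snhg1 scored 200, 170, 260 and 177, likewise over short peaks only. The longer Snhg1 peak scored 1098 and 1178 in Ctrl and 1351 and 841 in sKO. By annotation, 23 genes with 56 peaks contained a small nucleolar RNA, Snhg7os not among them. Of the 18 tested, none was called on the deposited scale and the median log2 fold change was 0.15, against 0.09 over all genes. Such hosts usually encode these RNAs in their introns. Among the growth and DNA damage lncRNAs Pvt1, next to Myc, stood without overlap at 838 and 977 in Ctrl and 1357 and 1158 in sKO (log2 fold change 0.47, SE 0.43, adjusted p = 1; equal totals 0.36, adjusted p = 0.101, limma). Trp53cor1 summed to 439 and 556 in Ctrl, against 628 and 466 in sKO, with overlap. None of these lists held a gene called on the deposited scale.

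Transcripts named for the strand opposite a coding gene accounted for 30 genes and 67 peaks. Of 19 tested, none was called on the deposited scale (median log2 fold change 0.19, against 0.09 over all genes). Rab10os scored 561 and 819 in Ctrl and 1179 and 909 in sKO over all its peaks (log2 fold change 0.61, SE 0.43, limma adjusted p = 1; equal totals 0.50, adjusted p = 0.0126). Atcayos scored 321 and 330 in Ctrl and 533 and 408 in sKO. In both the groups did not overlap. Chrna1os, next to the gene of the muscle acetylcholine receptor, scored 197 and 182 in Ctrl and 274 and 204 in sKO, also without overlap, whereas Junos, beside the AP-1 gene Jun, scored 236, 328, 335 and 251.

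Fewer lncRNA peaks lay on H4K20me1 than peaks of other classes. Of the 2099, 855 (40.7%, Wilson 95% interval 38.7% to 42.9%) overlapped an H4K20me1 peak, compared with 71.2% of protein-coding peaks and 49.99% of peaks listed with no gene. Neighbouring peaks share an H4K20me1 peak, so the interval covers counting error only and is too narrow. The share was similar across levels, at 41.3%, 41.3%, 38.6% and 41.9% in peaks with a score up to 20, 50, 100 and above, whereas it fell in protein-coding peaks from 77.1% to 63.3%. Within the lncRNA peaks it was 61.5% at protein-coding starts, 53.0% at shared starts, 39.7% in gene bodies and 35.2% at lncRNA starts. It was 53.9% for protein-coding peaks at their own start. By gene, 16 of the 22 Gm14005 peaks, 15 of the 22 Lncppara peaks and 23 of the 40 Lncpint peaks lay on H4K20me1, against 3 of 22 in 3110039I08Rik and 0 of 16 in Snhg14.

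**Figure D5:**
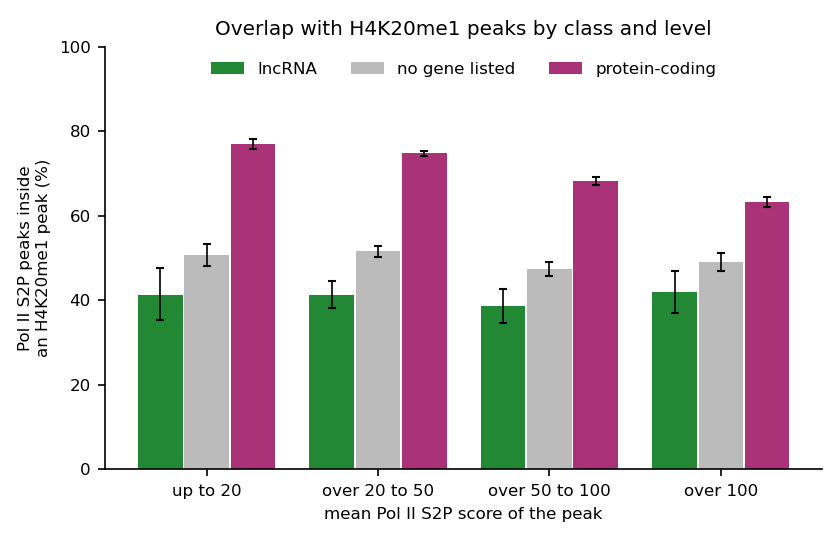
Percent of Pol II S2P peaks that overlap an H4K20me1 peak (y axis, from 0) by mean Pol II S2P score (x axis) for lncRNA peaks (green), peaks listed with no gene (grey) and protein-coding peaks (purple); error bars are Wilson 95% intervals. The lncRNA bars stay between 38.6% and 41.9%, below both other classes at every level.

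The H4K20me1 peaks under the lncRNA peaks numbered 507, of which 503 were tested. In limma 449 (89.3%) were called higher in sKO and none lower (also 0 lower at an unadjusted p under 0.05), where 90.1% of all 40902 tested H4K20me1 peaks were called higher and 0.00244% lower, so the count is that of the background. These peaks were longer than H4K20me1 peaks in general (median 13399 against 8399 bases). Per kb their median score was 21.6 in Ctrl and 52.4 in sKO, against 22.4 and 49.05 over all. The median log2 fold change was 1.29, against 1.14 over all tested H4K20me1 peaks. With equal totals it was 0.31 against 0.17, with 191 called higher (37.97%) and 47 lower (9.34%), where the shares were 22.6% and 4.41% of all tested H4K20me1 peaks. They were 29.5% and 8.97% under protein-coding Pol II S2P peaks, and 29.4% and 8.86% under those listed with no gene. The share called lower was thus not particular to lncRNA peaks. Both sKO libraries were above both Ctrl libraries in 487 (96.8%), against 93.9% of all. That share was 96.4% under protein-coding Pol II S2P peaks and 96.9% under those listed with no gene. In each library the median log2 score, not divided by length, under lncRNA peaks exceeded that of all H4K20me1 peaks, by 0.68 and 0.56 in Ctrl and by 0.81 and 0.74 in sKO, and the groups did not overlap (difference 0.16, pooled SD 0.07, exact p = 0.333). The 320 H4K20me1 peaks that held a lncRNA but no protein-coding Pol II S2P peak, a set chosen after the values were seen, had a median log2 fold change of 1.54 from a lower Ctrl level of 17.99 per kb to 51.4 in sKO. All autosomal H4K20me1 peaks between 12.1 and 25.96 per kb in Ctrl, the middle range of that set, had a median of 1.28.

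The densest of these H4K20me1 peaks per kb lay on AC102255.3, with 41 and 45 in Ctrl and 131 and 114 in sKO, on 9530026P05Rik, with 37 and 55 in Ctrl and 139 and 190 in sKO, and on Gm26972, with 40 and 43 in Ctrl and 117 and 110 in sKO. The largest change was on A530065N20Rik, with 30 and 13 in Ctrl and 220 and 282 in sKO (log2 fold change 3.59, SE 0.53, limma adjusted p = 5.72e-10). Gm40915 followed with 15 and 11 in Ctrl and 187 and 142 in sKO, and 1700025L06Rik with 10 and 17 in Ctrl and 160 and 166 in sKO. In A530065N20Rik, Gm40915 and 1700025L06Rik both Ctrl scores lay below the filter on the mean score. These peaks passed it only through sKO, so their rank and the p-value depend on that filter. The lowest change was over Malat1, with 357 and 498 in Ctrl and 290 and 381 in sKO, which overlap (log2 fold change -0.34, SE 0.29, limma adjusted p = 0.247). Next came the H4K20me1 peak of the splicing factor gene Srsf3, which reached Gm16196, with 736 and 901 in Ctrl and 655 and 703 in sKO, without overlap (log2 fold change -0.26, SE 0.27, limma adjusted p = 0.345). With equal totals the Malat1 peak was called lower (log2 fold change -1.32, adjusted p = 3.64e-15). Over all tested H4K20me1 peaks the median was 1.14 on the deposited scale and 0.17 with equal totals.

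Lastly, the change of Pol II S2P was set beside H4K20me1. The 366 tested lncRNA peaks inside H4K20me1 peaks had a median log2 fold change of 0.20 and the 550 outside 0.06. Median scores were 75 and 95 in Ctrl in both sets, and in sKO 114.5 and 81 inside against 107 and 76.5 outside. The difference of the log2 medians, inside minus outside, was 0 in both Ctrl libraries, 0.10 in sKO replicate 1 and 0.08 in sKO replicate 2 (exact p = 0.333). A difference in the same direction was present in protein-coding peaks (median log2 fold changes of 0.11 inside and 0.01 outside) and in peaks listed with no gene (0.28 and 0.13), so it was not particular to lncRNA genes. Across the 365 lncRNA peaks with both values, the change of Pol II S2P and the change of the H4K20me1 peak beneath had a Spearman rho of -0.11, given as a description since these peaks share libraries and H4K20me1 peaks.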

How the data were processed

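CUT&RUN libraries of Pol II S2P and H4K20me1 from cultured Ctrl and sKO MuSCs (4 libraries per antibody) were analysed; IgG libraries were not used here. Reads were trimmed by the authors with Trimmomatic 0.39. They aligned them to mm10 (GRCm38) with STAR 2.7.3a, kept unique alignments, removed duplicates with Picard 2.21.7 and normalised coverage by spike-in. The deposited score is a whole number per union peak and library, not divided by length; read depth cannot be had from it. The deposited fraction of a peak inside its listed gene and the distance of its centre to the gene start were used as given by the authors. The submitters' processing notes name SICER 0.0.41 and MACS2 2.1.1, and which antibody each served is not given in the sources used here. Peak coordinates are as deposited and were read as 1-based on GRCm38.

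Identifiers were named from GENCODE M21 (1096 of 1096 genes found). Peaks, and scores summed per gene, with a mean over 50 were tested on log2(score + 1) in limma 3.58.1 (trended eBayes) and R 4.3.3, with Benjamini-Hochberg adjustment over all autosomal peaks or genes, and called at a log2 fold change beyond 0.5 and an adjusted p under 0.1, the limits the study used for genes. A fold change on this scale understates the change of low peaks. The procedure was tested on simulated data. Values per library were tested by exact permutation, two-sided. Tables and sequence windows were made with Python 3.11.15, pandas 2.3.3, scipy 1.17.1 and pysam 0.24.0.

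Alternatives were equal library totals, quantile normalisation, other pseudocounts, filters and windows, a replicate block and leaving out each library. Named genes were the 12 highest peaks, the genes of fixed lists (nuclear, imprinted, small RNA hosts, growth and DNA damage, opposite strand), the genes with most peaks, the peaks of smallest p and the extremes of H4K20me1, of which 1 is not reported here; hosts by annotation and the genes called with equal totals were added after their values were seen. Members and lists were chosen with earlier results of these data known.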

Additional observations from a re-analysis of the deposited data

Results flagged for a closer look

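The sex chromosomes were outside the comparisons and held lncRNA signal in every library. The 27 lncRNA peaks on X, among them those of Jpx, an activator of Xist, had a mean summed score of 1326 (1110 and 1471 in Ctrl, 1593 and 1131 in sKO, with overlap). The 2 on Y had a mean summed score of 136 (163 and 96 in Ctrl, 132 and 154 in sKO, with overlap).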

How the results depend on the processing

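With equal totals 17 lncRNA peaks were called higher and 10 lower, and 9 genes higher and 6 lower; with quantile normalisation 15 and 5 peaks and 8 and 3 genes. Leaving out each library gave 0 to 3 peaks higher, the 3 without sKO replicate 2, and 0 lower. H4K20me1 calls under lncRNA peaks went from 449 to 191 higher and 47 lower with equal totals (median log2 fold change 0.31) and to 134 and 38 with quantile normalisation (0.20). Leaving out each library gave 258 to 480 higher, 0 to 1 lower (1 without Ctrl replicate 1) and medians of 1.11 to 1.41, with 258 without sKO replicate 2 and 294 without sKO replicate 1. The causes were not tested. The lncRNA share of the score differed by -0.0811 percentage points over peaks of any length, by 0.126 over peaks with at least 50% of their length in the listed gene (0.00873 as reported), and by -0.0394 to 0.0568 when each library was left out. The lncRNA against protein-coding difference was 0.03 on the log2 scale and -0.0021 with no filter. Peaks at their own start came to 18.2%, and to 12.4% and 27.01% with windows of 500 and 2000 bases and 20.6% over a mean of 50; those at a protein-coding start to 9.29%, 5.81%, 13.8% and 7.10%.

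Same-numbered libraries did not deviate together (correlation -0.03 over lncRNA peaks), so the numbers were not taken as pairs. With the replicate block 0 lncRNA peaks and 0 genes were called in either direction, 450 H4K20me1 peaks were called higher and 0 lower, and the medians were 0.12 and 1.29. The other settings kept every count of calls within 1.5 times. The median Pol II S2P change of 0.12 ranged from -0.10 to 0.36 when each library was left out and was -0.02 with equal totals and with quantile normalisation, within the spread of the libraries. With 2 libraries per group and totals that differ within each group, the deposited scale detects little, so that an absence of calls there does not show an absence of change. Spike-in counts were not used here.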
